A study of Mus musculus with 8 samples.

Results

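The primary granule genes of myeloid progenitors comprised the 5 genes Mpo, Elane, Prtn3, Ctsg and Ms4a3, picked by their platform gene symbols out of 19938 genes measured on the arrays. Each was read by 1 probe set, so no choice between probe sets had to be made. RNA came from flow-sorted mouse bone marrow cells of strain C57BL/6J in 4 groups of 2 arrays each: KLS cells of mice carrying ∆Hmga2 (TG KLS), KLS cells of wild-type mice (WT KLS), MEP cells of ∆Hmga2 mice (TG MEP) and MEP cells of wild-type mice (WT MEP). The name KLS stands for marrow cells with surface c-Kit and Sca-1 and without lineage markers, the fraction that holds blood stem cells, while MEP stands for the progenitors of megakaryocytes and red cells. Hmga2 is the gene of a high mobility group protein that binds chromatin, and its overexpression is the stated subject of the series. Each RNA preparation was pooled from 4 or 6 mice, and the design text calls the 8 preparations independent. The sources used here do not give the promoter of the altered Hmga2, the age of the mice or the number of founder lines.

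Primary, or azurophil, granules are the first granules that a neutrophil precursor makes, at the promyelocyte stage. Their cargo genes are switched on in granulocyte-monocyte progenitors and are shut down before the neutrophil is mature, when genes for specific and gelatinase granules take over. Mpo encodes myeloperoxidase, which makes hypochlorous acid from hydrogen peroxide. Elane encodes neutrophil elastase, Prtn3 encodes proteinase 3 and Ctsg encodes cathepsin G, all of them serine proteases stored in active form. Ms4a3 encodes a membrane protein of the four-transmembrane Ms4a family and marks granulocyte-monocyte progenitors in the mouse. It is no granule cargo itself.

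The windows from 250 bases before to 50 bases after the start of each gene are shown because the 5 genes moved together between the arrays and their promoters may be read side by side. Sequences are from RefSeq (build GRCm38.p6), which held all 5 genes, and are written 5′ to 3′ on the strand of the gene. Capitals mark the letters GGAAGT, a core bound by PU.1 and other Ets factors, on either strand (ACTTCC is its reverse).
Mpo, chr11:87793534-87793833, plus strand: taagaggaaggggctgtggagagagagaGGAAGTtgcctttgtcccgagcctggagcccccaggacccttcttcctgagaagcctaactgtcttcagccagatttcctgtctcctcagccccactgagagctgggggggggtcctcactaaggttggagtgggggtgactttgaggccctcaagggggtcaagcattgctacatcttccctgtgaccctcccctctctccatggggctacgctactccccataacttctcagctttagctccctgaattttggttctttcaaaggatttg
Elane, chr10:79886062-79886361, plus strand: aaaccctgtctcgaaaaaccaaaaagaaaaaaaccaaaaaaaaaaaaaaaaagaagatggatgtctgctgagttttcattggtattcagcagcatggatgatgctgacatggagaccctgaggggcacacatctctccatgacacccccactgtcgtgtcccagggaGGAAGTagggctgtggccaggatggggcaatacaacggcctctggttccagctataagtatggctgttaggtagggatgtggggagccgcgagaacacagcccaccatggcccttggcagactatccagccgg
Prtn3, chr10:79879417-79879716, plus strand: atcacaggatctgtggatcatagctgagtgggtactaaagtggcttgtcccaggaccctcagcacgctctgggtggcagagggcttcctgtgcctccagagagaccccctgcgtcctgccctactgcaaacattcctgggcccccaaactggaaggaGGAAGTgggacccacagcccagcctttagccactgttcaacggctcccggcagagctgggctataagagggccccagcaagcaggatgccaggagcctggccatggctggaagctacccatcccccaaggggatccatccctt
Ctsg, chr14:56102525-56102824, minus strand: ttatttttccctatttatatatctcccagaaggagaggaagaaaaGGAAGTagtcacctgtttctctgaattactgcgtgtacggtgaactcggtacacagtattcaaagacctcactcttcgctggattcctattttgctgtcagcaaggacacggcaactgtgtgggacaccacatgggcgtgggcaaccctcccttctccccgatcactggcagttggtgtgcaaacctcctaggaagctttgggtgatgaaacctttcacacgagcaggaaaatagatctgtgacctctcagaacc
Ms4a3, chr19:11640802-11641101, minus strand: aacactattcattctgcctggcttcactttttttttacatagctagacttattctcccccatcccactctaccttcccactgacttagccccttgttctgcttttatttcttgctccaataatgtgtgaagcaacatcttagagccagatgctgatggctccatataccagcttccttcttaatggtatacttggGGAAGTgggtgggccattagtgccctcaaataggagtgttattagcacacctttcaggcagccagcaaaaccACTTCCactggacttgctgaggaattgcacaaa

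All 5 windows held GGAAGT on 1 strand or the other, as did 23.8% of the 32851 promoter windows of the same length in the RefSeq table. In Elane it began at base -83 and in Prtn3 at base -93 from the gene start, in Mpo at base -222, in Ctsg at base -205 and in Ms4a3 at base -55, with another match in Ms4a3 at base 18. The MYB core AACNG was in 4 of 5 windows and in 80.3% of all windows, the C/EBP core GCAAT in 3 of 5 and 26.4%, and the RUNX core TGTGGT in 1 of 5 and 16.8%, both strands searched in each case. No matches of different motifs overlapped in these windows. The letters were chosen after these 5 sequences had been read, so the counts describe the sequences and test nothing.

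As deposited, the arrays had medians of 6.34 to 6.45 (log2), and replicates correlated across genes at 0.981 to 0.988. Of the stem and multipotent progenitor markers, 5 of 8 measured were called higher in KLS cells by limma, where 1.20% of all genes were. The 5 were led by Cd34 (log2 difference 2.97), Flt3 (2.55) and Hlf (2.24). Meis1 (2.05) and Mecom (0.86) were the others called, named after their values were seen. Of the erythroid markers, 0 of 7 differed past the threshold (2 at an unadjusted p under 0.05, against 2844 of all 19938 genes). Klf1, a transcription factor of red cell precursors, averaged 8.10 ± 0.07 in the KLS arrays and 8.30 ± 0.08 in the MEP arrays (SD, n = 4 each). Car1, carbonic anhydrase 1, averaged 12.82 ± 0.05 in the KLS arrays and 12.95 ± 0.02 in the MEP arrays. All 7 erythroid markers were lower in KLS cells by their means, the most for Hemgn at -0.70 ± 0.16, Trim10 at -0.58 ± 0.23 and Slc4a1 at -0.27 ± 0.25 (SE). Klf1 and Car1 were named after their values were seen.

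All 5 primary granule genes were far higher in KLS cells than in MEP cells, and genotype moved none of them past the threshold. Levels below are log2 probe set values after quantile normalization, given for replicates 1 and 2 of each group, and a step of 1 is a doubling. Levels of different genes come from different probe sets and are not set against each other.

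Mpo read 12.94 and 11.69 in TG KLS, 12.79 and 11.53 in WT KLS, 8.52 and 8.66 in TG MEP, and 9.76 and 8.88 in WT MEP cells. The lowest KLS array lay above the highest MEP array by 1.77, or 3.41 fold. Averaged over genotypes, the KLS minus MEP difference was 3.28 ± 0.35 (SE, 9.73 fold, limma adjusted p = 0.00837), the fourth largest of all 19938 genes in that direction. In bulk RNA, fewer cells that express a gene and less of its RNA per cell cannot be told apart.

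Among the serine proteases, Ctsg read 11.43 and 10.22 in TG KLS, 11.14 and 9.89 in WT KLS, 6.40 and 7.01 in TG MEP, and 7.80 and 7.21 in WT MEP cells. Its difference of 3.56 ± 0.34 (SE, 11.8 fold, limma adjusted p = 0.00805) ranked 1 of all genes, and its KLS and MEP arrays lay 2.09 apart at the closest. Elane read 9.41 and 8.06 in TG KLS, 9.32 and 8.20 in WT KLS, 5.71 and 5.94 in TG MEP, and 6.30 and 6.14 in WT MEP cells. Here the KLS arrays were 2.72 ± 0.31 higher (SE, 6.60 fold, limma adjusted p = 0.0103), with a gap of 1.76 between the closest arrays. Prtn3, which lies next to Elane on chromosome 10, read 9.22 and 8.33 in TG KLS, 8.99 and 8.28 in WT KLS, 5.97 and 6.44 in TG MEP, and 6.70 and 6.54 in WT MEP cells. Its difference was the smallest of the 5, at 2.29 ± 0.23 (SE, 4.90 fold, limma adjusted p = 0.00805), and its arrays did not overlap either, with a gap of 1.58.

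Ms4a3 read 10.31 and 9.16 in TG KLS, 9.95 and 9.12 in WT KLS, 6.17 and 6.25 in TG MEP, and 6.64 and 6.09 in WT MEP cells. With a KLS range of 1.18 and a MEP range of 0.55, it showed the widest gap between the cell types, 2.48 or 5.59 fold. The difference was 3.35 ± 0.27 (SE, 10.2 fold, limma adjusted p = 0.0072).

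**Figure D1:**
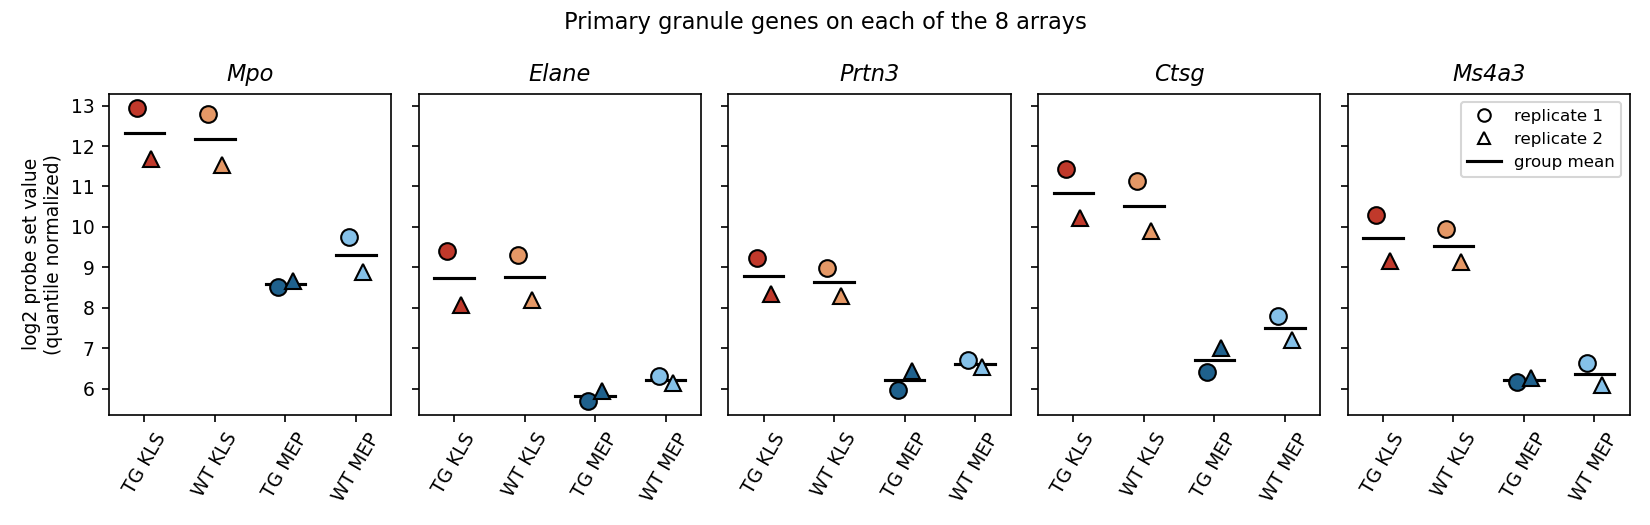
Log2 probe set value (y axis, quantile normalized) of each gene in TG KLS, WT KLS, TG MEP and WT MEP cells (x axis). Circles are replicate 1, triangles replicate 2 and bars the mean of the 2 arrays. In every panel the 4 KLS arrays lie above the 4 MEP arrays, and both KLS circles lie above both KLS triangles.

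Of the 5 genes, 5 were called higher in KLS cells, where 1.20% of all genes were, and 1.60% were called in either direction. Over all genes limma called 240 higher and 79 lower in KLS cells, and with each array centred on its median 79 higher and 44 lower. The 4 KLS arrays lay above the 4 MEP arrays for all 5 genes and for 4.41% of all genes. The median difference of the 5 was 3.28, against 0.01 over all genes. The calls depended on 1 library: without TG MEP replicate 1 they were lost, as were nearly all calls over the whole table. The differences of the 5 genes then ran from 2.17 for Prtn3 to 3.41 for Ctsg. Without TG MEP replicate 2, Elane did not pass (2.78, adjusted p = 0.0530). Leaving out any of the other 6 arrays kept all 5 calls.

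Within 1 genotype, with 2 arrays on each side, the calls were fewer. In TG cells the KLS minus MEP difference was 4.12 ± 0.48 for Ctsg, 3.72 ± 0.49 for Mpo, 3.52 ± 0.38 for Ms4a3, 2.91 ± 0.44 for Elane and 2.57 ± 0.32 for Prtn3 (SE). All but Elane (adjusted p = 0.0636) passed, 4 of 5 where 0.135% of all genes did. In WT cells the same difference was 3.01 ± 0.48 for Ctsg, 2.84 ± 0.49 for Mpo, 3.18 ± 0.38 for Ms4a3, 2.54 ± 0.44 for Elane and 2.02 ± 0.32 for Prtn3. There 0 of 5 passed limma's threshold (adjusted p from 0.0899 to 0.162), as against 0.00502% of all genes. At an unadjusted p under 0.05 there were 5 of 5, and 1774 of all 19938 genes. The test of the difference between the genotypes' cell type gaps is the interaction below, and a call in TG and none in WT cells does not show that they differ. The TG calls were lost (0 of 5) without TG KLS replicate 1, TG MEP replicate 1 or TG MEP replicate 2, with median centring, and with robust variances.

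The genotype comparison asks whether these genes differ between ∆Hmga2 and wild-type mice in either fraction. In KLS cells the TG minus WT difference was 0.15 ± 0.49 for Mpo (95% interval -0.96 to 1.26), -0.02 ± 0.44 for Elane (-1.02 to 0.98), 0.14 ± 0.32 for Prtn3 (-0.59 to 0.87), 0.32 ± 0.48 for Ctsg (-0.77 to 1.40) and 0.20 ± 0.38 for Ms4a3 (-0.67 to 1.07). For each gene the TG and WT KLS arrays interleaved. By limma 0 of 5 passed (0 at an unadjusted p under 0.05), as did 0% of all genes (500 unadjusted). All 5 signs turned with 1 KLS array left out, with values from -0.48 to 0.79 for Mpo and from -0.70 to 0.65 for Elane. Leaving out 1 array sets a single preparation against a mean of both, and the preparations of a KLS group stood apart by the step given below.

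In MEP cells all 5 genes had a TG mean below the WT mean. Ctsg averaged 6.71 ± 0.43 in TG and 7.51 ± 0.42 in WT MEP cells (SD, n = 2 each), a difference of -0.80 ± 0.48 (SE, 95% interval -1.88 to 0.28). Mpo averaged 8.59 ± 0.10 in TG and 9.32 ± 0.62 in WT MEP cells, a difference of -0.73 ± 0.49 (-1.84 to 0.39). The differences were -0.41 ± 0.32 for Prtn3, -0.40 ± 0.44 for Elane and -0.15 ± 0.38 for Ms4a3. By limma 0 of 5 passed (0 at an unadjusted p under 0.05, adjusted p = 1.000 for each), as did 0% of all genes (739 unadjusted). Both TG arrays lay below both WT arrays for 4 of 5 genes, all but Ms4a3, and for 17.2% of all genes.

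Markers of mature myeloid cells and of B cells also read lower in the TG MEP arrays, and WT MEP replicate 1 was the highest MEP array for each list given here. The 14 late granule genes of mature neutrophils had a median TG minus WT difference of -1.18 in MEP cells. The median was -0.41 for the 5 primary granule genes and -0.01 for all genes. Both TG arrays lay below both WT arrays for all 14 late granule genes, against 17.2% of all genes. The mean log2 level of the 14 was 8.17 and 8.20 in TG MEP cells, and 9.64 and 8.89 in WT MEP cells. The 9 monocyte and macrophage markers averaged 6.06 and 6.32 in TG MEP, and 7.15 and 6.57 in WT MEP cells. The 7 B lineage markers averaged 7.36 and 7.41 in TG MEP, and 9.65 and 7.43 in WT MEP cells. The 8 stem and multipotent progenitor markers averaged 6.60 and 6.71 in TG MEP, and 7.42 and 6.61 in WT MEP cells. The 7 erythroid markers averaged 8.89 and 9.02 in TG MEP, and 9.44 and 9.43 in WT MEP cells. Both TG arrays lay below both WT arrays for 4 of the 7, as for 17.2% of all genes. The other 3 had TG means above their WT means, 1 of them with both TG arrays above both WT arrays. The median difference of the 7 was -0.19. Of the 4 lower ones, Slc4a1 was at -1.46 ± 0.35 and Alas2 at -1.20 ± 0.24. Both were named after their values were seen, and both were short of limma's threshold (adjusted p = 1.000). The part of these cell types in the lower granule gene readings was not tested. Without WT MEP replicate 1 the difference was -0.29 for Mpo, -0.50 for Ctsg and 0.13 for Ms4a3, and without WT MEP replicate 2 it was -1.17 for Mpo, -1.09 for Ctsg and -0.43 for Ms4a3, with 0 of 5 passing in either case. Prtn3 was at -0.18 without TG MEP replicate 1 and at -0.65 without TG MEP replicate 2, and Ctsg at -0.49 without TG MEP replicate 1.

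Over both cell types the TG minus WT difference ran from -0.29 for Mpo to 0.02 for Ms4a3, with 0 of 5 past limma's threshold (0 unadjusted) and 0% of all genes past it (649 unadjusted). The interaction, which is the genotype difference in KLS cells minus that in MEP cells, was above 0 for all 5 genes, from 0.35 ± 0.54 for Ms4a3 to 1.12 ± 0.68 for Ctsg (SE, 95% interval -0.42 to 2.65). It passed for 0 of 5 genes (0 unadjusted) and for 0% of all genes (453 unadjusted). With 1 array left out it ran from 0.49 (without WT KLS replicate 2) to 1.74 (without WT KLS replicate 1) for Ctsg and, with the same arrays left out, from 0.25 to 1.51 for Mpo. In order of level, Mpo, Prtn3, Ctsg and Ms4a3 ran from TG KLS through WT KLS and WT MEP down to TG MEP cells, and Elane differed only in having WT KLS at the top. No neighbouring pair of groups within a cell type passed the test.

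**Figure D2:**
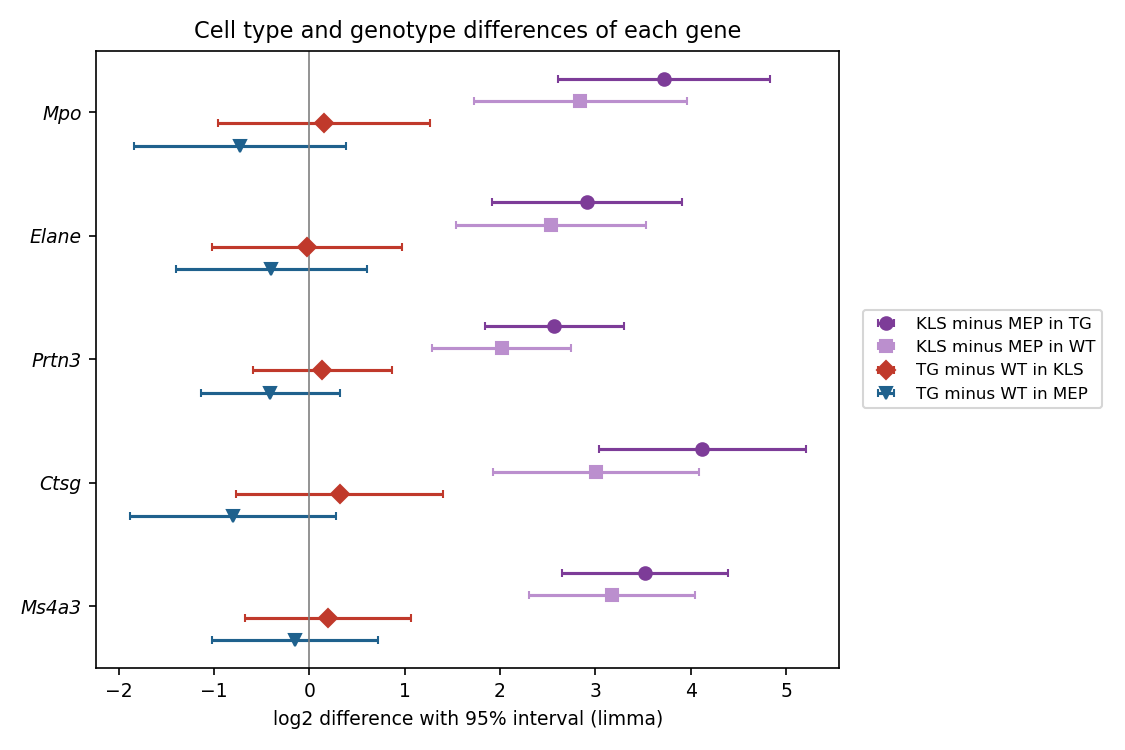
Log2 difference (x axis) with its 95% interval from limma for each gene (y axis), for KLS minus MEP in TG and in WT cells and for TG minus WT in KLS and in MEP cells. The cell type differences lie between 2.02 and 4.12 with intervals clear of 0, and every genotype interval crosses 0.

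The spread within the KLS groups had a pattern of its own. In both genotypes the KLS preparation numbered 1 was above the one numbered 2 for every one of the 5 genes, by 0.89 to 1.35 in TG KLS and by 0.71 to 1.27 in WT KLS cells. For Mpo the step was 1.25 in TG KLS and 1.27 in WT KLS cells, and for Ctsg it was 1.21 in the TG and 1.25 in the WT preparations. A step of over 1.5 fold in both genotypes was seen for 5 of 5 genes and for 1.12% of all genes, a fold chosen after the values were seen. In MEP cells the same step was -0.14 in TG and 0.88 in WT cells for Mpo, so the numbers did not order the MEP arrays alike. The labels do not say that a number marks a shared day or batch.

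Late granule genes did not follow this step. Their median step from replicate 2 to replicate 1 was 0.03 in TG KLS and -0.86 in WT KLS cells, with 14 of 14 lower on WT KLS replicate 1. The regulators of granulocyte-monocyte progenitors had median steps of 0.34 in TG KLS and 0.42 in WT KLS cells, and the other primary granule cargo genes 0.65 in TG KLS and 0.20 in WT KLS cells, against 0.08 and 0.04 for all genes in TG KLS and WT KLS cells. The monocyte and macrophage markers had median steps of 0.98 in TG KLS and 0.16 in WT KLS cells. WT KLS replicate 2 read low for primary granule genes and high for late ones, with a late granule mean of 10.25 there and 9.32 to 9.50 on the other KLS arrays.

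**Figure D3:**
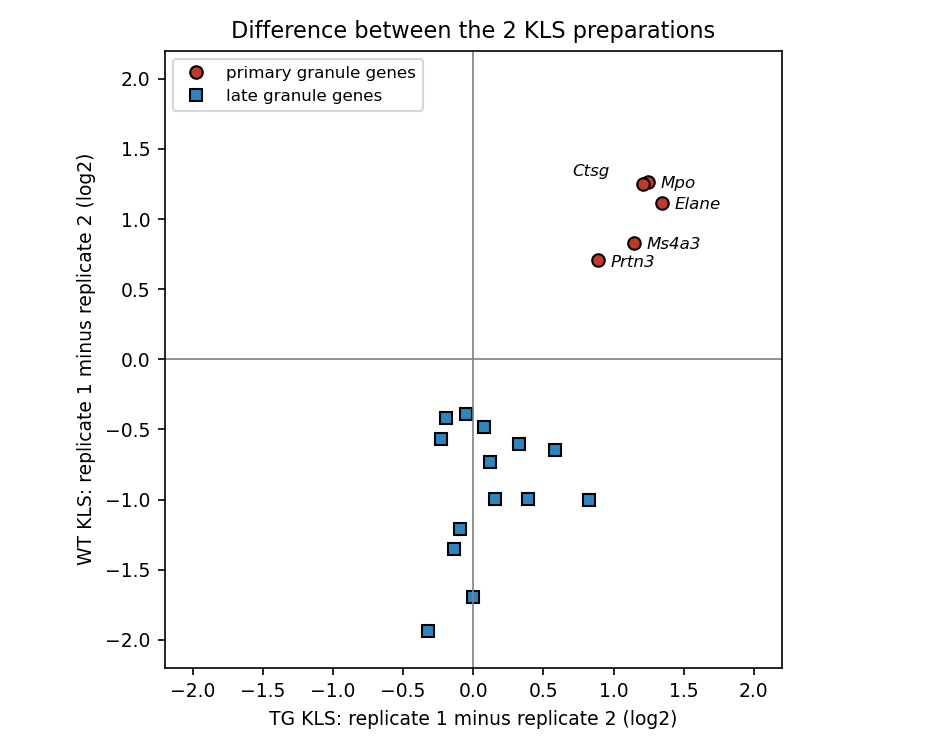
Difference between replicate 1 and replicate 2 on the log2 scale in TG KLS cells (x axis) and in WT KLS cells (y axis), 1 point per gene. The 5 primary granule genes (red circles) lie above 0 on both axes, and the 14 late granule genes (blue squares) lie below 0 on the WT KLS axis.

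The genes that arm, pack and hold back the granule proteases were measured as a list of 12. Of these, 5 were called higher in KLS cells and 0 lower (median difference 0.79), where 1.20% of all genes were called higher. Serpinb1a, an inhibitor of elastase, cathepsin G and proteinase 3, averaged 8.87 ± 0.39 over the KLS arrays and 6.60 ± 0.92 over the MEP arrays (SD, n = 4 each), a difference of 2.27 ± 0.33 (SE, limma adjusted p = 0.0220). Cst7, the cysteine protease inhibitor cystatin F, differed by 2.18 ± 0.40, the granule membrane protein Cd63 by 1.41 ± 0.12, and Slpi, a secreted inhibitor of elastase, by 1.18 ± 0.20. Srgn, the proteoglycan core on which granule proteins are stored, was the fifth at 0.78 ± 0.15, named after its values were seen. Ctsc, the dipeptidyl peptidase that activates all 3 proteases, was at 1.03 ± 0.36 and did not pass (adjusted p = 0.216), and was likewise named after its values were seen. Like the calls of the 5 genes, these calls leaned on single libraries. Of 32 called genes named here from the lists and from the genes of like profile, 1 was called without TG MEP replicate 1, 6 without TG MEP replicate 2, 8 without TG KLS replicate 1, 16 without WT KLS replicate 1, 16 without WT MEP replicate 2, 19 without WT KLS replicate 2, and 18 with median centring, with every direction kept.

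Other primary granule cargo and promyelocyte genes were called higher in KLS cells for 4 of 10 measured members, against 1.20% of all genes. Their median difference was 1.01. The called genes were Plac8 at 2.18 ± 0.38, the immunoglobulin-type receptor gene Igsf6 at 1.49 ± 0.25, the hexokinase gene Hk3 at 0.90 ± 0.15 and the ficolin gene Fcnb at 0.56 ± 0.10 (SE). Further cargo genes, named after their values were seen, did not pass: Prss57, a serine protease of the same granules, at 1.04 ± 0.23 (adjusted p = 0.0627), and Lyz2, lysozyme, at 1.19 ± 0.27 (adjusted p = 0.0719).

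Of the 14 regulators, 3 were called higher in KLS cells and 0 lower, with a median of 0.75, where 1.20% of all genes were called higher. Fcgr3, an Fc receptor used to sort granulocyte-monocyte progenitors, averaged 7.40 ± 0.47 over the KLS arrays and 5.76 ± 0.65 over the MEP arrays, a difference of 1.65 ± 0.27. Spi1, which encodes the myeloid transcription factor PU.1, differed by 1.22 ± 0.20 (limma adjusted p = 0.0343), and Csf3r, the receptor of granulocyte colony-stimulating factor, by 1.16 ± 0.16. Factors known to act on primary granule genes, named after their values were seen, did not pass: Cebpa was at 0.75 ± 0.19 (adjusted p = 0.103), Runx1 at 0.75 ± 0.17 (0.0710), Cebpe at 0.44 ± 0.17 (0.250), Myb at 0.34 ± 0.23 (0.616) and Gfi1 at 0.17 ± 0.11 (0.605).

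The late granule genes were called higher in KLS cells for 1 of 14 members, against 1.20% of all genes. This was Ngp, a neutrophilic granule protein, at 1.22 ± 0.24 (limma adjusted p = 0.0458). All 14 of 14 were above 0 with an unadjusted p under 0.05, a level met in either direction by 2844 of all 19938 genes. Their median of 0.91 stood beside 3.28 for the 5 primary granule genes. In TG cells alone both KLS arrays lay above both MEP arrays for all 14, as for 4254 of all 19938 genes, and 0 of the 14 passed. In WT cells this held for 2 of the 14 and for 3962 of all genes, and again 0 passed. On the 8 arrays the late granule mean ran from 9.32 to 10.25 in KLS and from 8.17 to 9.64 in MEP cells. WT MEP replicate 1, at 9.64, was the 1 MEP array above the lowest KLS array. Of the KLS arrays only WT KLS replicate 2 was above it. The mean of the 5 primary granule genes ran from 9.40 to 10.66 in KLS and from 6.56 to 7.44 in MEP cells, with no overlap.

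**Figure D4:**
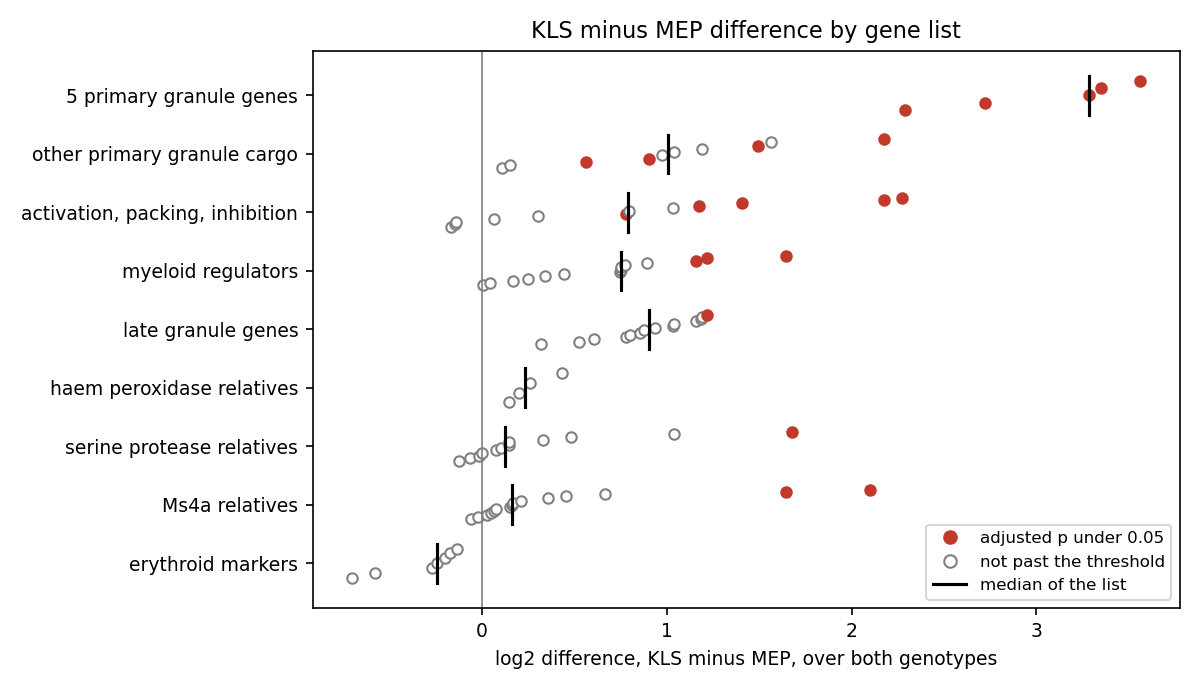
Log2 difference of KLS minus MEP cells over both genotypes (x axis) for each gene of 9 lists (y axis), with filled red points past an adjusted p of 0.05 and a bar at the list's median. The 5 primary granule genes lie from 2.29 to 3.56, and the late granule genes from 0.32 to 1.22.

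Markers of other cell types also differed between the fractions. Limma called 1.20% of all genes higher in KLS cells, and 3 of 9 basophil and mast cell markers. The 3 called were the basophil protease gene Mcpt8, Cpa3, mast cell carboxypeptidase, and Hdc, histidine decarboxylase. Their differences were 1.68 ± 0.18, 1.44 ± 0.27 and 0.78 ± 0.15 in that order. Of the monocyte and macrophage markers 1 of 9 passed, Ms4a6c at 2.10 ± 0.28, and F13a1 (1.89 ± 0.38) and Ly86 (1.32 ± 0.38) did not. Megakaryocyte, eosinophil, B lineage, and T and NK lineage markers passed for 0 of 6, 0 of 5, 0 of 7 and 0 of 7 members by limma (3, 4, 1 and 0 at an unadjusted p under 0.05). Over all 19938 genes, 2844 had an unadjusted p under 0.05. The 3 megakaryocyte genes were higher in KLS cells, Pf4 at 1.57 ± 0.36, Ppbp at 0.59 ± 0.16 and Itga2b at 0.27 ± 0.11. Of the 6 megakaryocyte markers, 2 had lower means in KLS cells. The part of these cell types in the KLS minus MEP difference of the primary granule genes was not tested.

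Relatives of the 5 genes were put to the same cell type test, which called 1.20% of all genes higher in KLS cells. Of the 4 haem peroxidase relatives of Mpo, 0 passed by limma (1 at an unadjusted p under 0.05, against 2844 of all 19938 genes). The one with the smallest p was Epx, eosinophil peroxidase, at 0.43 ± 0.12 (adjusted p = 0.122). Of 12 chymotrypsin-fold relatives of Elane, Prtn3 and Ctsg, which include granzymes and mast cell proteases, 1 passed, Mcpt8, and the median was 0.12. Of 15 Ms4a genes other than Ms4a3, 2 passed, Ms4a6c at 2.10 ± 0.28 and Ms4a6b at 1.64 ± 0.19, with a median of 0.16.

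The genes next door on the chromosome were read by position, 4 protein-coding genes on each side. Of 32 such neighbours outside the 5 genes, 29 were measured. Of these, 2 were called higher in KLS cells, Mcpt8 next to Ctsg and Ms4a6b in the Ms4a cluster, and 0 lower. Of all genes, 1.20% were called higher. Mpo lies beside Lpo, lactoperoxidase, which was at 0.26 ± 0.15, and 3 places from Epx. Elane and Prtn3 lie side by side on chromosome 10, and their other measured neighbours ran from 0.01 for Med16 to 0.47 for Palm. Granzyme genes beyond Ctsg on chromosome 14 ran from -0.22 for Gzmd to 0.07 for Gzmg.

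**Figure D5:**
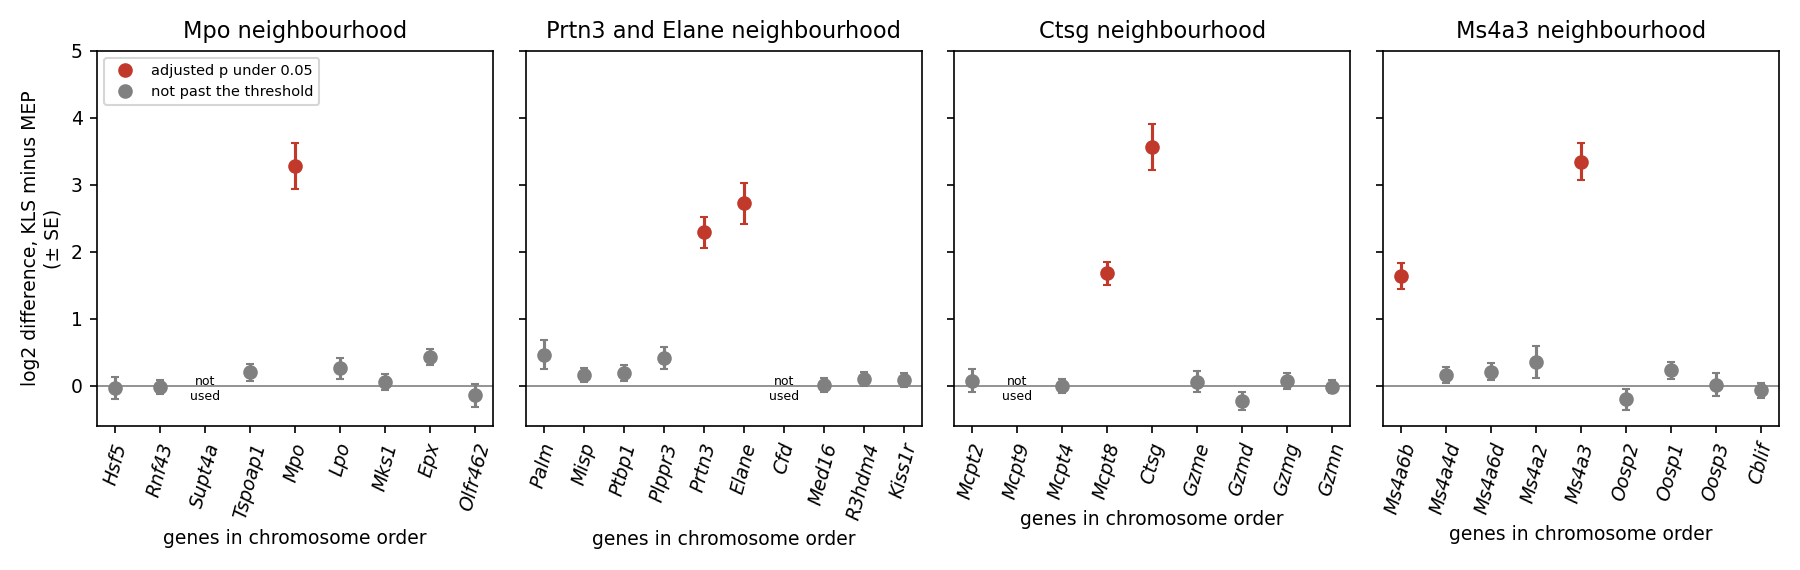
Log2 difference of KLS minus MEP cells with its SE (y axis) for the genes around Mpo, Prtn3 and Elane, Ctsg, and Ms4a3 in chromosome order (x axis). Red points passed an adjusted p of 0.05, and the peaks stand at the primary granule genes, Mcpt8 and Ms4a6b.

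Over the 8 arrays each of the 5 genes followed the mean profile of the other 4 closely, with Pearson correlations from 0.992 for Ms4a3 to 0.997 for Prtn3 and Ctsg. These values describe 8 arrays in separate KLS and MEP clusters, and a large difference between the fractions alone gives a high correlation. Among 1942 other genes that varied by at least 1 over the arrays, the profile was most like that of Sele, the adhesion molecule E-selectin (0.991), Rab27a, a GTPase of granule release (0.988), Ramp1, a receptor activity modifying protein (0.986), Cd34 (0.984), and the transcription factor gene Tfec (0.983). The next were Gng12 (0.981), Anxa3 (0.980), Pgam1 (0.9795), Dock1 (0.979) and Sirpa, a receptor of myeloid cells (0.978). Sele read 8.44 and 7.79 in TG KLS, 8.39 and 7.81 in WT KLS, 6.59 and 6.59 in TG MEP, and 6.64 and 6.69 in WT MEP cells, and its KLS preparations numbered 1 were also the higher ones. Anxa3, an annexin of neutrophils, read 9.41 and 8.13 in TG KLS, 9.30 and 8.10 in WT KLS, 5.40 and 6.16 in TG MEP, and 7.01 and 6.57 in WT MEP cells.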

How the data were processed

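RNA of 8 preparations was measured on Affymetrix arrays, 1 each, and the authors deposited log2 values for 35556 probe sets. The log2 scale was read from the values, which run from 1.71 to 14.0. The submitters' processing notes name Affymetrix Expression Console. The sources used here give no version, summarization or normalization. Precision is limited by the number of arrays, not by a read depth.

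The deposited medians spanned 0.106, so values were quantile normalized. By the platform annotation 21789 probe sets had 1 symbol, 1621 had several and 12146 were not listed. The brightest probe set with 1 symbol stood for each gene, giving 19938 genes. Tests used limma 3.58.1 (R 4.3.3) with a mean per group over all 8 arrays (4 residual and 4.82 prior degrees of freedom), two-sided, and p-values were adjusted over the whole table by Benjamini-Hochberg, with calls under 0.05. The procedure was tested on simulated data. Errors of group means are SD and of differences SE.

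The 5 genes, the lists, the tests and the alternatives were chosen with earlier results of these data known. Of each list of pathway genes, up to 4 called genes with the largest KLS minus MEP change were named, or the one with the smallest p, and of each marker list up to 3 with the largest change. Others are said to be named after their values were seen. The 10 genes most like the 5 were ranked by correlation with their mean scaled profile over the 8 arrays, among genes with a range of at least 1 and a name that is no clone or model name. Results were also computed on deposited values, with median centring, with probe sets averaged, without the dimmest 30% of genes, with array weights, robust variances or an intensity trend, with the replicate block, at an adjusted p under 0.10, on the 4 arrays of a comparison alone, and without each array in turn.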

Additional observations from a re-analysis of the deposited data

How the results depend on the processing

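The 5 KLS minus MEP differences kept their direction under all 17 alternatives run, from 2.97 to 3.60 for Mpo, 2.39 to 3.06 for Elane, 2.07 to 2.51 for Prtn3, 3.25 to 3.88 for Ctsg and 3.06 to 3.63 for Ms4a3. With 1 array left out the number of the 5 called ran from 0 to 5, and all genes called from 1 to 738, against 319 on all arrays. All genes called came to 123 with median centring, 562 with the replicate block and 780 at an adjusted p under 0.10. For the 32 named list genes and genes of like profile these alternatives were added after seeing the data, and Hlf was the 1 gene still called without TG MEP replicate 1.

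For KLS minus MEP in TG cells 4 of the 5 and 27 of all genes were called. With median centring these were 0 and 1, with robust variances 0 and 11, and with 1 array left out from 0 to 5 and from 0 to 257. All genes called there were 89 with array weights, 111 with the replicate block, 74 at an adjusted p under 0.10 and 284 with the 4 arrays alone. In WT cells 0 of the 5 and 1 of all genes were called. These were 2 and 8 with the replicate block, 1 and 5 at an adjusted p under 0.10, from 0 to 1 and from 1 to 59 with 1 array left out, and 0 of all genes with the 4 arrays alone.

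No genotype comparison or interaction called any of the 5 genes under the alternatives run. With 1 array left out all genes called ran from 0 to 144 for TG minus WT in MEP cells, 0 to 67 over both cell types, where the replicate block called 1, and 0 to 10 for the interaction. Signs of genotype differences turned. Elane in KLS cells was 0.073 as deposited and 0.10 with median centring. With 1 array left out, TG minus WT in KLS cells ran from -0.48 to 0.79 for Mpo, -0.70 to 0.65 for Elane, -0.31 to 0.58 for Prtn3, -0.31 to 0.94 for Ctsg and -0.38 to 0.77 for Ms4a3. Over both cell types it ran from -0.60 to 0.029 for Mpo, -0.55 to 0.13 for Elane, -0.36 to 0.085 for Prtn3, -0.55 to 0.070 for Ctsg and -0.26 to 0.31 for Ms4a3. In MEP cells Ms4a3 ran from -0.43 to 0.13, and the interaction from -0.30 to 1.05 for Elane and -0.23 to 0.92 for Ms4a3. The cause of these changes was not tested beyond the fewer arrays.

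The titles number the replicates 1 and 2 in each group. Across genes the replicate differences of 2 groups correlated from -0.28 to 0.38, so the numbers do not pair the samples throughout. The replicate block kept all 5 KLS minus MEP calls. Between KLS arrays of the same number, TG minus WT was 0.14 and 0.16 for Mpo, 0.30 and 0.34 for Ctsg, 0.23 and 0.05 for Prtn3, 0.35 and 0.04 for Ms4a3, and 0.09 and -0.14 for Elane. A lone array left in a group is assumed to vary like the other groups.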
